A study of Mus musculus and synthetic construct with 3 samples.

Results

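Hexagons rich in smooth muscle transcripts were compared between a tissue piece at the start of the array and control aortas on the same array. A hexagon with 12-μm sides was a member if it held 50 or more genes and at least 3 UMIs (unique transcripts), summed over Acta2, Tagln, Myl9 and Myh11, the contractile genes of smooth muscle. The piece held 1037 members among 2601 kept hexagons, and the control sections held 375 among 1458. The whole lane had 14258 kept hexagons. Control mice 1, 2 and 3 had 195, 66 and 114 members.

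Seq-Scope captures the RNA of a tissue section on a surface of barcodes whose positions are known. The array carried 10-μm sections of suprarenal abdominal aortas, 10 from 3 control mice and 10 from 3 mice with abdominal aortic aneurysm (AAA). All were male Apoe -/- mice on a normal diet. By the labels they were 16 weeks old at the start, and control mice received saline and the others AngII (1,000 ng/ml), each for 4 weeks by minipump. The study's methods give a younger age for the model and state the dose as a rate per body weight. Apoe -/- mice lack apolipoprotein E and have raised blood lipids, so the control aortas were not wild type. The labels do not name the tissue of the piece, the mouse it came from or that mouse's infusion. Its sections and mice cannot be counted, so it entered every comparison as 1 sample.

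Smooth muscle of arteries and of hollow organs shares a contractile apparatus but not every gene of it. Arterial smooth muscle relies on Acta2, the vascular α-actin, and builds elastic lamellae and other wall matrix. Visceral smooth muscle of the gut and bladder adds Actg2, the enteric γ-actin, and large amounts of the intermediate filament protein desmin (Des), and it is arranged in layers around an epithelium. A hexagon is a small area that can hold several cells of different types, so a member is an area with contractile RNA and not a cell.

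The actins of both kinds of muscle are close relatives, and the comparison rests on telling them apart. Actg2 lies at chr6:83512905-83536265 on the minus strand and Acta2 at chr19:34241090-34255590 on the minus strand (GRCm38). The starts of their coding sequences are shown because actins are known to differ most at this end. Each stretch is the first 30 coding bases, in exon 2 of the longest GENCODE transcript, at chr6:83527412-83527441 for Actg2 and chr19:34252524-34252553 for Acta2.
Actg2: atgtgtgaagaAgaGACcaCcGcCCTTGtg
Acta2: atgtgtgaagaGgaAGAcaGcAcAGCCCtg
Capitals mark the 11 bases that differ. Of the 1259 windows of 75 bases in the longest Actg2 transcript, 0 occurred in a transcript of Acta2, Actc1, Acta1, Actb or Actg1, and 0 of 1961 Acta2 windows occurred in another actin.

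Members of the piece held more UMIs each than those of the control aorta, at a lower contractile share. Its members held 258663 UMIs, and those of control mice 1, 2 and 3 held 20055, 6782 and 9822. The median member had 155 UMIs in the piece and 91, 98 and 78 in the control mice. The 4 genes of the rule made up 2.09% of the members' UMIs in the piece and 4.06%, 3.95% and 4.65% in the control mice. Just inside the rule, 295 members of the piece had exactly 3 contractile UMIs, and just outside it, 421 kept hexagons had 2. The same counts were 93 and 90, 27 and 69, and 58 and 87 in control mice 1, 2 and 3. A deeper hexagon can reach 3 contractile UMIs at a smaller contractile share, and the median member's share was 2.94% in the piece and 4.11%, 4.10% and 4.97% in the control mice.

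By eye, members lay along bands. The piece reached from the edge of the array to 2390 μm along the lane, and its last member lay at 2307 μm, while the first aortic section began at 3783 μm. Up to 800 μm it was a broad block with 773 members and 235141 UMIs. From there a narrow strand ran on with 264 members and 23522 UMIs. Within the block, members of high contractile share appeared on the map as a curved band around areas poor in contractile UMIs. This shape was not measured. Members with over 300 UMIs, 285 in number, held 61.3% of the piece's member UMIs, and 0 control members exceeded 300.

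**Figure D1:**
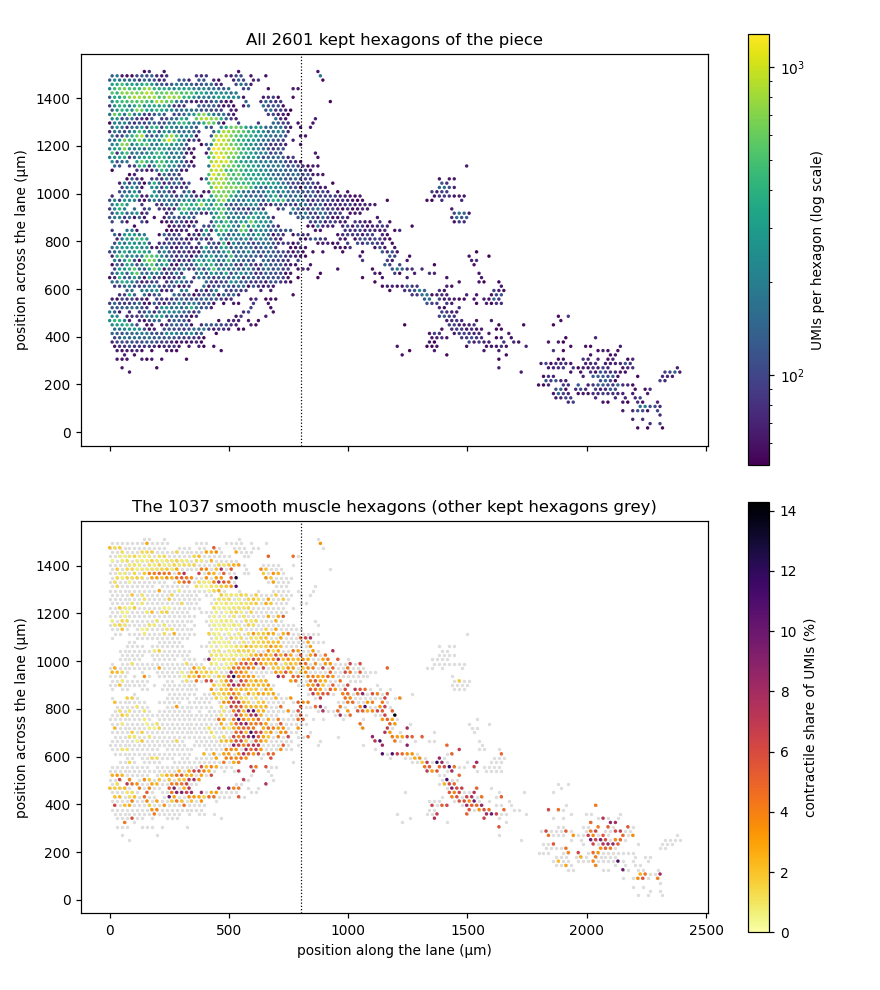
Position of the kept hexagons of the piece along and across the lane in μm, coloured by UMIs (top, log scale) and, for members, by the contractile share of their UMIs in percent (bottom). Members number 1037 of 2601, and the dotted line at 800 μm divides the block from the strand.

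The genes that chose the members are given as levels only. Acta2 stood at 84.4 UMIs per 10,000 UMIs in the piece and at 212, 173 and 254 in control mice 1, 2 and 3. Myl9, a myosin regulatory light chain, stood at 45.0 and at 108, 108 and 103. Tagln, an actin-binding protein, stood at 75.8 and at 73.8, 114 and 101, so the piece lay within the range of the control mice. Myh11, the smooth muscle myosin heavy chain, stood at 3.44 in the piece and at 12, 1.47 and 8.14, also within the range. Among the 4 genes the balance differed. Per 100 of their UMIs, Tagln took 36.3 in the piece and 18.2, 28.7 and 21.7 in the control mice, and Acta2 took 40.5 and 52.2, 43.7 and 54.5.

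Across genes, 348 passed the low-count filter and were tested with edgeR's quasi-likelihood test, apart from the 4 genes of the rule. In the piece 66 were higher (19% of those tested) and 43 were lower (12.4%) at an adjusted p under 0.05, and 88 and 57 had an unadjusted p under 0.05. The lone piece was taken to vary like the control mice, so a p compares this piece with these mice and not 2 kinds of tissue. The filter asked for about 6.69 UMIs per 10,000 in at least 1 sample. Of the genes called lower, 29 reached that level in control mice only, and of those called higher, 24 reached it in the piece only, so these could enter the test only if they differed. On the 149 genes at that level on both sides, 42 (28.2%) were higher and 14 (9.4%) were lower. Called or not, the piece stood above every control mouse for 132 of the 348 genes and below every one for 113, so such a position was common. DESeq2 on the same counts called only 5 higher (Muc2, Clca1, Mptx1, Reg4 and Spink4) and 8 lower (Mgp, Bgn, Ptgis, Sost, Itga8, Mcam, Sod3 and St5), so every other call below is edgeR's alone. Scaling by library size alone, without edgeR's TMM factors, gave 51 higher and 50 lower. Counting UMIs over whole genes, introns included, gave 1331 tested genes, of which 289 were higher and 23 lower. The member rule was applied to these counts too. It gave 1197 members in the piece and 247, 82 and 176 in control mice 1, 2 and 3, so reads and members changed together. Fewer cells of a type and less RNA per cell cannot be told apart in sums over hexagons.

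Actg2 separated the piece from every control mouse. It had 507 UMIs in the piece against 8, 0 and 1 in control mice 1, 2 and 3. Per 10,000 UMIs this was 19.6 (exact 95% interval 17.9 to 21.4) in the piece and 3.99, 0 and 1.02 in the control mice, whose 95% intervals ended at 7.86, 5.44 and 5.67. The piece thus lay above every control mouse, as it did for 132 of the 348 tested genes. Actg2 reached the filter level in the piece only. The log2 fold change was 3.04 ± 0.48 (SE, edgeR adjusted p = 2.9e-08), but DESeq2 did not call it (log2 fold change 3.33, adjusted p = 0.079). Control mouse 1 carried 8 of the 9 control UMIs, and without it the log2 fold change was 4.91. Set against the 4 genes of the rule, Actg2 had 9.39 UMIs per 100 contractile UMIs in the piece and 0.983, 0 and 0.219 in the control mice. In AAA mice 1, 2 and 3 its level was 2.82, 1.03 and 4.73 per 10,000.

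Des and other proteins tied to visceral muscle moved less. Desmin had 231 UMIs in the piece and 9, 1 and 1 in the control mice, or 8.93 per 10,000 against 4.49, 1.47 and 1.02. The piece lay above every control mouse (log2 fold change 1.64 ± 0.62, SE, edgeR adjusted p = 0.031), but the call was lost in DESeq2 (adjusted p = 0.55), with library size alone (0.050), without control mouse 3 (0.23) and in the block before 800 μm (log2 fold change 1.29, adjusted p = 0.13). Ckb, the brain-type creatine kinase that buffers ATP, stood at 10.8 in the piece and 3.49, 5.90 and 9.16 in the control mice, and did not pass (edgeR adjusted p = 0.12). Synm, the desmin partner synemin, was too low to be tested, with 87 UMIs in the piece and 3, 0 and 1 in the control mice. It is named after its values were seen.

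The list of visceral smooth muscle genes had 14 members, of which 13 were detected and 3 tested. Of these, 2 were higher and 0 lower, beside 19% of all tested genes higher. Its summed level was 53.0 UMIs per 10,000 in the piece and 25.4, 14.7 and 22.4 in the control mice. Of the 3 tested members, the 2 called (Actg2 and Des) reached the filter level in the piece only, so the count is a description and not support.

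**Figure D2:**
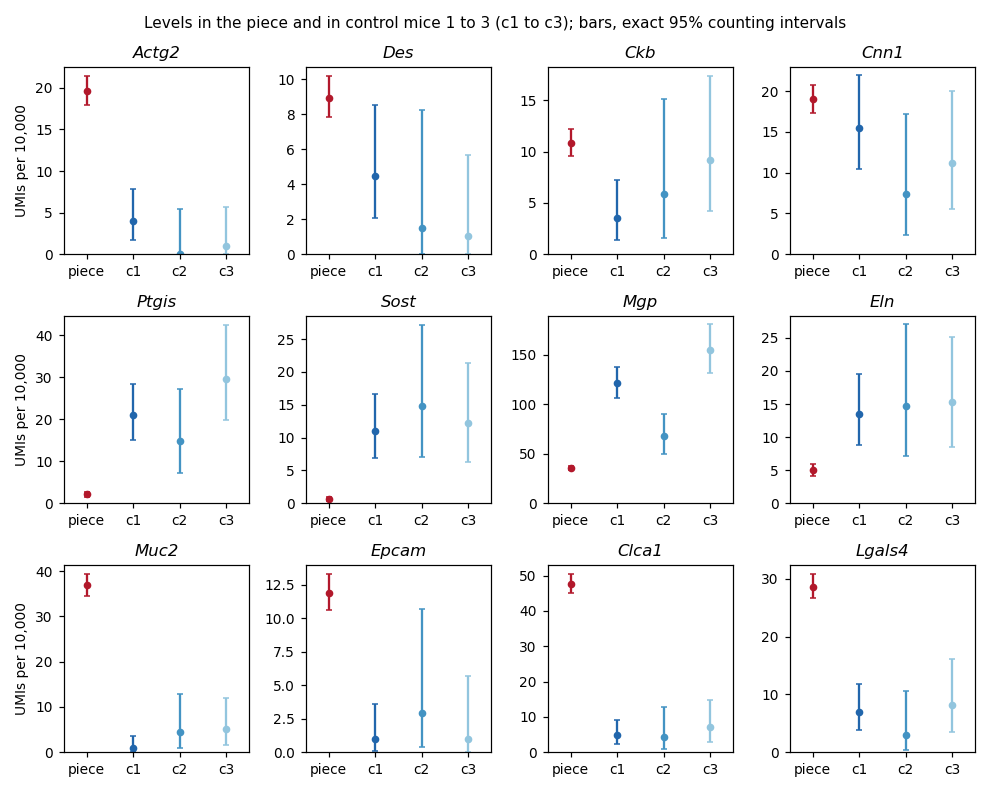
UMIs per 10,000 UMIs of members for 12 genes in the piece and in control mice 1 to 3 (c1 to c3), with exact 95% counting intervals. Actg2 reached 19.6 in the piece and at most 3.99 in a control mouse, Ptgis 2.09 and at least 14.7, and Muc2 36.9 and at most 5.09.

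Genes of the arterial wall were far lower in the piece. Ptgis, prostacyclin synthase, which makes the vasodilator prostacyclin, had 54 UMIs in the piece and 42, 10 and 29 in the control mice. Per 10,000 it stood at 2.09 in the piece and 20.9, 14.7 and 29.5 in the control mice (log2 fold change −3.38 ± 0.37, SE, edgeR adjusted p = 8.8e-17). Sost, the secreted Wnt inhibitor sclerostin, had 15 UMIs in the piece and 22, 10 and 12 in the control mice. Its level was 0.580 against 11, 14.7 and 12.2 per 10,000 (log2 fold change −4.35 ± 0.72, SE, edgeR adjusted p = 7.8e-08). For both genes the piece lay below every control mouse, as it did for 113 of the 348 tested genes. Both were also called by DESeq2, with adjusted p = 7.2e-05 for each, on the same filtered genes. Both reached the filter level in control mice only, so these calls are a description and not support.

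Mgp, matrix Gla protein, an inhibitor of calcification, stood at 35.5 in the piece and 121, 67.8 and 155 in the control mice (log2 fold change −1.70 ± 0.30, SE, edgeR adjusted p = 8.6e-07). With UMIs over whole genes the log2 fold change was −0.40 and the call was lost, but genes of other lists moved up there too. Mgp was the one arterial gene at the filter level on both sides. Eln, tropoelastin, stood at 4.99 against 13.5, 14.7 and 15.3 (−1.50 ± 0.41, edgeR adjusted p = 0.0023), a call that DESeq2 did not make (adjusted p = 0.30). Npnt, the matrix ligand nephronectin, had 13 UMIs in the piece and 18, 2 and 5 in the control mice. Its receptor subunit Itga8 had 3 in the piece and 12, 3 and 7. In both the piece lay below every control mouse per 10,000 UMIs.

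All 9 tested genes of the arterial smooth muscle list were lower, beside 12.4% of all tested genes. Besides those named, they were Mcam, the adhesion molecule CD146, Rgs5, a regulator of G protein signalling, and Csrp2, a LIM protein of smooth muscle. Csrp2 stood at 3.36 in the piece and 14.0, 2.95 and 8.15 in the control mice, so for it the groups overlapped. With UMIs over whole genes 4 of the 9 were called lower and 0 higher, beside 23 lower of all 1331 tested genes. In DESeq2 5 were lower, beside 8 of all 348. Without control mouse 1, 4 of 6 tested were lower (18 of all 184 tested genes), and without mouse 3, 5 of 9 (17 of all 443). The list's summed level was 52.3 per 10,000 in the piece and 215, 144 and 258 in the control mice. Since 8 of the 9 reached the filter level in control mice only, the count is a description and not support. In the area of the array outside all sections and the piece, Mgp stood at 118 per 10,000 UMIs, the arterial list at 155 and the visceral list at 20.7. All these levels lie within the range of the control mice. The part of such RNA in the control levels was not tested.

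Contractile proteins outside the rule were mostly not called with exonic UMIs. Of 19 thin filament and regulatory genes, 12 were tested, 0 were higher and 2 were lower in edgeR (0 and 4 at an unadjusted p under 0.05). Of all tested genes 19% were higher and 12.4% lower. DESeq2 called 0, with 2 lower at an unadjusted p under 0.05. With UMIs over whole genes 6 of the 12 were higher and 0 lower, beside 289 higher and 23 lower of all 1331 tested genes. Genes of other lists moved up there as well, so the turn was not particular to this list. The log2 fold change went from 3.04 to 4.26 for Actg2, from −3.38 to −1.91 for Ptgis and from −1.70 to −0.40 for Mgp. These 3 genes rose by similar amounts. Cnn1, calponin, stood at 19.0 in the piece and 15.5, 7.37 and 11.2 in the control mice (edgeR adjusted p = 0.12). Mylk, myosin light chain kinase, stood at 10.8 against 9.97, 8.85 and 8.14 (edgeR adjusted p = 0.66). The piece lay above every control mouse for both genes, without passing the test. The lower ones were Flna, the actin crosslinker filamin A (17.0 against 37.4, 48.7 and 25.5, edgeR adjusted p = 0.0012), and Actn1, α-actinin (4.56 against 16, 14.7 and 13.2, edgeR adjusted p = 0.00048). Actb, cytoplasmic β-actin, stood at 62.0 against 80.8, 81.1 and 71.3 and did not pass (edgeR adjusted p = 0.42). Flna took the other sign when UMIs over whole genes were counted (log2 fold change 0.31). Cnn1, Mylk, Flna and Actn1 were named after their values were seen. Focal adhesion and LIM protein genes had 5 tested and 0 called by edgeR or DESeq2, with 2 lower at an unadjusted p under 0.05 in edgeR. The list of calcium and cyclic GMP signalling genes had 1 tested and 0 called (0 at an unadjusted p under 0.05), and smooth muscle transcription factors had 0 tested.

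**Figure D3:**
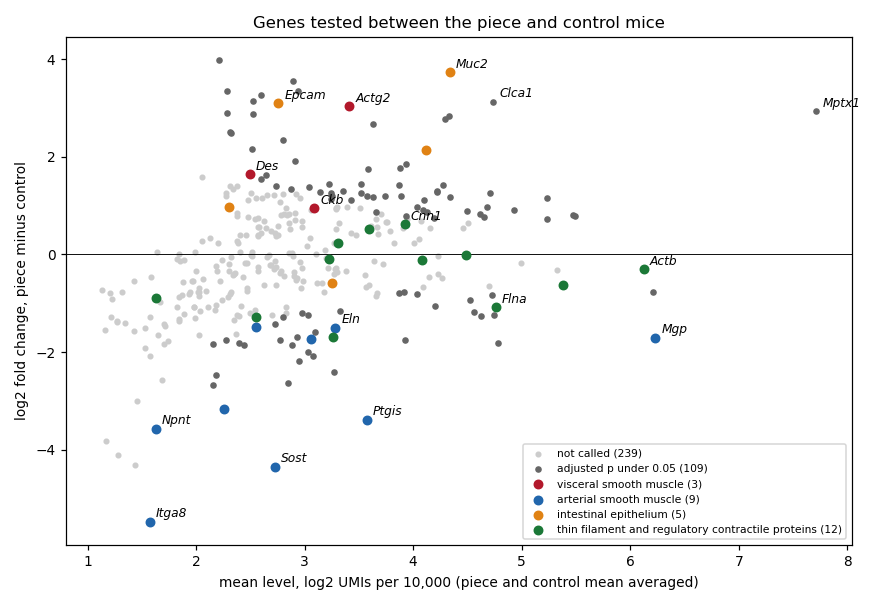
Log2 fold change (piece minus control) against the mean level (log2 UMIs per 10,000) for the 348 genes tested, with 109 at an adjusted p under 0.05 in dark grey and members of 4 lists in colour. Actg2 lies at 3.04 and the 9 arterial genes lie between −1.49 and −5.47.

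Muc2, Clca1, Epcam and Lgals4, genes of gut epithelium, were higher in the piece. Muc2, the main gel-forming mucin of the intestine, had 954 UMIs in the piece and 2, 3 and 5 in the control mice, or 36.9 per 10,000 against 0.997, 4.42 and 5.09 (log2 fold change 3.73 ± 0.40, SE, edgeR adjusted p = 3.5e-17). Clca1, a secreted product of goblet cells, stood at 47.7 against 4.99, 4.42 and 7.13. Epcam, an adhesion molecule of epithelia, stood at 11.9 against 0.997, 2.95 and 1.02. Lgals4, a galectin of the gut lining, stood at 28.6 against 6.98, 2.95 and 8.15. In all 4 genes the piece lay above every control mouse and passed the edgeR test, while DESeq2 did not call Epcam (adjusted p = 0.22) or Lgals4 (0.078). Muc2 and Epcam reached the filter level in the piece only. The 10 genes of largest increase were Muc2, Clca1, Epcam, Actg2 and Agr2, Fcgbp, Muc3, Oit1, Gsdmc4 and Iglc3, the last 6 at log2 fold changes from 3.15 to 3.97. Mptx1, a pentraxin of the intestinal mucosa, named after its values were seen, had 9566 UMIs in the piece and 94, 32 and 53 in the control mice, or 370 per 10,000 against 46.9, 47.2 and 54.0.

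The list of 19 intestinal epithelium markers had 5 tested, 3 higher and 0 lower, beside 19% of all tested genes higher. Since 3 of the 5 reached the filter level in the piece only, the count is a description and not support. Its summed level was 112 per 10,000 in the members of the piece and 32.9, 35.4 and 44.8 in the control mice. It was 114 per 10,000 in the other kept hexagons of the piece. Stomach epithelium markers stood at 0.0387 per 10,000 in the piece against 0 to 1.02 in the control mice. Urothelium markers stood at 1.31 (34 UMIs) in the piece against 0 in every control mouse. Lung epithelium markers were at 0 UMIs in the piece and all control mice. Of B and plasma cell markers, 1 of 2 tested was higher, with Igkc, the immunoglobulin κ constant region, at 16.5 against 11, 8.85 and 6.11 (edgeR adjusted p = 0.049). This call was lost in DESeq2 (0.60), with library size alone (0.11) and without control mouse 1 (0.11), 2 (0.077) or 3 (0.32). Enteric neuron and glia markers (77 UMIs, 2.98 per 10,000 against 2.04 to 2.99) and those of interstitial cells of Cajal (31 UMIs, 1.20 against 1.47 to 3.05) had 0 genes tested.

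These epithelial levels moved with the comparison, and their part in the other differences was not tested. The kept hexagons of the piece were also read by the contractile share of their UMIs, as a description. From under 1% to 6% or more contractile UMIs, Actg2 went from 6.98 through 14.3, 32.7 and 46.7 to 60.5 per 10,000. Cnn1 went from 8.03 to 58.0, Des from 4.05 to 33.8 and Csrp1, a LIM protein of smooth muscle, from 7.95 to 39.5. These muscle genes were thus highest where the contractile share was highest. The classes were cut on the 4 genes of the rule, so this course is a description and not support. Muc2 went the other way, from 40.5 to 15.9, as did Mptx1, from 456 to 79.0, and Clca1, from 58.9 to 14.0.

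Mgp, Eln, Ptgis and Sost followed neither course. Across the same classes Mgp stayed between 37.8 and 44.2 per 10,000, Eln between 4.83 and 7.64, Ptgis between 1.58 and 3.46 and Sost between 0.624 and 1.30. Where the contractile share was 6% or more, each of the 4 was below its lowest level in the members of any control mouse. Rgs5, in contrast, went from 2.61 to 8.28, and Mcam from 0.390 to 2.55. Csrp2 stayed between 2.08 and 3.98, and Npnt and Itga8 were under 1 UMI per 10,000 throughout. The arterial list summed to 53.4 at under 1% and 67.5 at 6% or more.

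**Figure D4:**
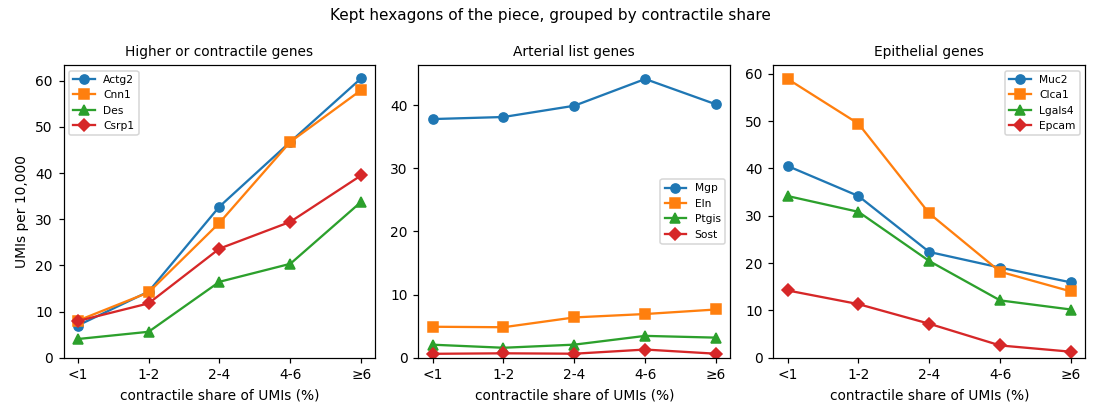
Levels in UMIs per 10,000 over the 2601 kept hexagons of the piece, grouped by the contractile share of their UMIs in percent, in 3 panels of 4 genes. Actg2 goes from 6.98 to 60.5, Mgp stays between 37.8 and 44.2, and Muc2 goes from 40.5 to 15.9.

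Members with a contractile share of 4% or more were compared apart, a choice made after the data were seen. They numbered 381 in the piece and 105, 37 and 79 in control mice 1, 2 and 3. They were chosen again by the 4 genes of the rule, so the calls among them are a description and not support. Here Acta2 stood at 222 against 298, 230 and 301 per 10,000, Myl9 at 137 against 143, 140 and 125, and Tagln at 232 against 97.1, 149 and 131. Actg2 stood at 52.3 against 3.35, 0 and 0 (log2 fold change 5.03 ± 0.55, SE, edgeR adjusted p = 2.4e-15). Cnn1 stood at 51.3 against 15.6, 9.33 and 8.31 and now passed the test (log2 fold change 2.20 ± 0.34, SE, edgeR adjusted p = 4.5e-08). Des, Ckb, Csrp1, Mylk and Tpm2, a tropomyosin, also passed as higher, at log2 fold changes of 2.71, 2.52, 2.01, 1.41 and 1.51. Among thin filament and regulatory genes 4 of 9 tested were higher and 0 lower, beside 11 higher of all 126 genes tested here. Flna did not pass (42.0 against 39.0, 37.3 and 23.3, edgeR adjusted p = 0.36).

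Lower genes held in part in that selection. Ptgis stood at 3.35 against 27.9, 9.33 and 21.6 (log2 fold change −2.52 ± 0.70, SE, edgeR adjusted p = 0.0039). Mgp stood at 42.5 against 155, 56.0 and 178 (−1.56 ± 0.36, edgeR adjusted p = 0.00044). Sost stood at 1.03 against 10.0, 15.5 and 9.97 and did not pass (edgeR adjusted p = 0.074). Of 6 arterial genes tested here 2 were called lower, beside 8 of all 126 tested genes. Eln (log2 fold change −0.84, edgeR adjusted p = 0.53) and Rgs5 (−0.53, 0.71) were among those that lost the call. Muc2, at 17.8 against 0, 3.11 and 6.65, passed as higher (edgeR adjusted p = 0.025), while Clca1, at 16.5 against 3.35, 9.33 and 3.32, did not (0.10).

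The muscle genes Actg2 and Cnn1 had higher levels in the strand beyond 800 μm than in the block, and the epithelial genes Muc2 and Mptx1 lower ones. In the strand Actg2 stood at 46.3 per 10,000 and Cnn1 at 43.4, against 16.9 and 16.5 in the block. Muc2 stood at 13.2 in the strand and 39.3 in the block, and Mptx1 at 66.3 and 400.2. The cut at 800 μm was chosen after the data were seen, so calls in the strand are a description and not support. Against the control mice, the strand's log2 fold change was 4.30 for Actg2 (edgeR adjusted p = 7.3e-17), 3.33 for Des (6.0e-09) and 1.86 for Cnn1 (4.5e-06). It was −3.01 for Ptgis (1.0e-05), −4.54 for Sost (3.1e-05) and −1.25 for Mgp (0.00094). Of the 9 arterial genes 5 were called lower there, beside 11 of all 325 tested genes. Eln (−0.83, edgeR adjusted p = 0.43) and Rgs5 (−0.45, 0.67) were not called. Of the epithelial genes, Muc2 passed (2.24, edgeR adjusted p = 0.0055) but Mptx1 (0.50, 0.42), Clca1 (1.06, 0.32) and Lgals4 (0.83, 0.47) did not.

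Matrix genes were lower or not called with exonic UMIs. Among 15 genes of fibrillar collagen and interstitial matrix, 8 were tested, 4 were lower and 0 higher, beside 12.4% of all tested genes lower. With UMIs over whole genes, where genes of other lists moved up too, 2 of 10 tested were higher and 0 lower. Of all 1331 genes tested there, 289 were higher, a share near that of this list. DESeq2 called 1 lower (8 of all 348 tested genes), and 2 were lower without control mouse 3 (17 of all 443). Bgn, the proteoglycan biglycan, stood at 11.9 in the piece and 39.4, 45.7 and 43.8 in the control mice (log2 fold change −1.81 ± 0.29, SE, edgeR adjusted p = 5.4e-08). Fn1, fibronectin, stood at 15.9 against 30.4, 22.1 and 37.7, and Col1a2 at 12.3 against 32.4, 20.6 and 20.4. Over whole genes the call for Bgn was lost (log2 fold change −0.50), and Fn1 and Col1a2 took the other sign, at 0.36 and 0.27. Col3a1, the type III collagen chain, stood at 29.8 against 36.4, 31.0 and 33.6 and did not pass (edgeR adjusted p = 0.63), but over whole genes it was higher (log2 fold change 1.13, edgeR adjusted p = 4.9e-05). Bgn, Fn1, Col1a2 and Col3a1 moved up there by similar amounts, so these changes are not read as results of single genes. Of 5 tested elastic fibre genes 2 were lower (Eln and Ltbp4), beside 12.4% of all tested genes. Over whole genes 11 of this list were tested, with 0 lower and 1 higher, beside 289 higher of all 1331. Of 4 tested basement membrane genes Col18a1 was lower, at 2.09 against 17.5, 10.3 and 9.16.

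The remaining genes of largest decrease included Sod3, extracellular superoxide dismutase, at 2.90 against 12, 17.7 and 19.3, and Serpine2, a protease inhibitor, at 2.82 against 11, 4.42 and 22.4. Ccdc3 and Tm4sf1 completed the 10. Hspb1, a small heat shock protein, was the 1 of 4 tested heat shock genes that was lower, beside 12.4% of all tested genes. It stood at 3.40 against 17.5, 8.85 and 14.3. Immediate early genes had 1 tested and 0 called.

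Calls among genes of protein synthesis and respiration depended on the tool and on single control mice. Of 4 tested translation factors 3 were higher, beside 19% of all tested genes, with Eef1a1, which brings aminoacyl-tRNA to the ribosome, at 57.2 against 36.4, 28.0 and 33.6 (log2 fold change 0.79 ± 0.27, SE, edgeR adjusted p = 0.019). DESeq2 called 0 of the 4 (2 at an unadjusted p under 0.05), with an adjusted p of 0.31 for Eef1a1. Without control mouse 1 the edgeR count was 0 (2 unadjusted) and without mouse 3 it was 0 (3 unadjusted), and Eef1a1 had adjusted p = 0.070 and 0.17. A list of ribosomal protein genes was added after the data were seen. Of 65 tested, 30 were higher and 0 lower in edgeR, beside 19% of all tested genes higher. DESeq2 called 0 of them (6 unadjusted). Without control mouse 1, 8 of 51 were higher (21 of all 184 tested genes), and without mouse 3, 12 of 68 (34 of all 443). Of 13 tested respiratory chain genes 3 were higher, a share near that of all tested genes, among them Cox8a at 20.3 against 6.48, 7.37 and 14.3. DESeq2 called 0 of them (0 unadjusted), and edgeR called 0 without control mouse 1 (2 unadjusted) and 1 without mouse 3. Over whole genes, where genes of other lists moved up too, 17 of 17 were higher, beside 289 of all 1331 tested genes. With a contractile share of 4% or more, 0 of 30 tested ribosomal protein genes were called in edgeR (3 had an unadjusted p under 0.05), and the ribosomal sum in the piece went from 1164 per 10,000 at under 1% contractile share to 778 at 6% or more.

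Hepatocyte markers had UMIs in the piece and in every control mouse. Of 8 tested hepatocyte markers 2 were lower in the piece, beside 12.4% of all tested genes lower. Alb, serum albumin, stood at 53.7 against 79.8, 119 and 84.5, a direction that turned with UMIs over whole genes (log2 fold change 0.58). Genes of other lists moved up there too. Over whole genes 2 of 8 were higher and 0 lower, a share higher near that of all genes tested there (289 of 1331). Without control mouse 3, 0 of 9 were called (0 unadjusted). The list summed to 136 per 10,000 in the piece, 192 to 276 in the control mice and 249 in the area of the lane outside the sections. Adipocyte markers summed to 20.5 against 35.4 to 44.9, fibroblast markers to 60.6 against 73.7 to 93.2, macrophage markers to 16.9 against 17.7 to 21.4 and endothelial markers to 6.65 against 7.37 to 15.3. Pericyte markers, which include Rgs5, summed to 6.34 against 16.2 to 22.4. Markers of pancreatic acinar cells, kidney tubule, male accessory glands, female reproductive tract, skeletal muscle, cardiac muscle, mesothelium, T cells, mast cells, and thyroid and brown fat summed to 0.116 to 5.64 in the piece, with 1 gene tested (kidney tubule) and 0 called. The piece lay above every control mouse for mesothelium (5.64 against 0 to 2.95) and female reproductive tract (4.99 against 0 to 2.04). It also did for pancreatic acinar cells (2.55 against 0 to 0.499), skeletal muscle and mast cells. For kidney tubule, cardiac muscle, and thyroid and brown fat it lay below every one, and for the others within their range. The smooth muscle list, which holds the 4 genes of the rule, summed to 241 against 411 to 493. Red blood cell markers differed between control mice, at 23.9, 72.3 and 4.07, with the piece at 12.5. Their part in the differences above was not tested.

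**Figure D5:**
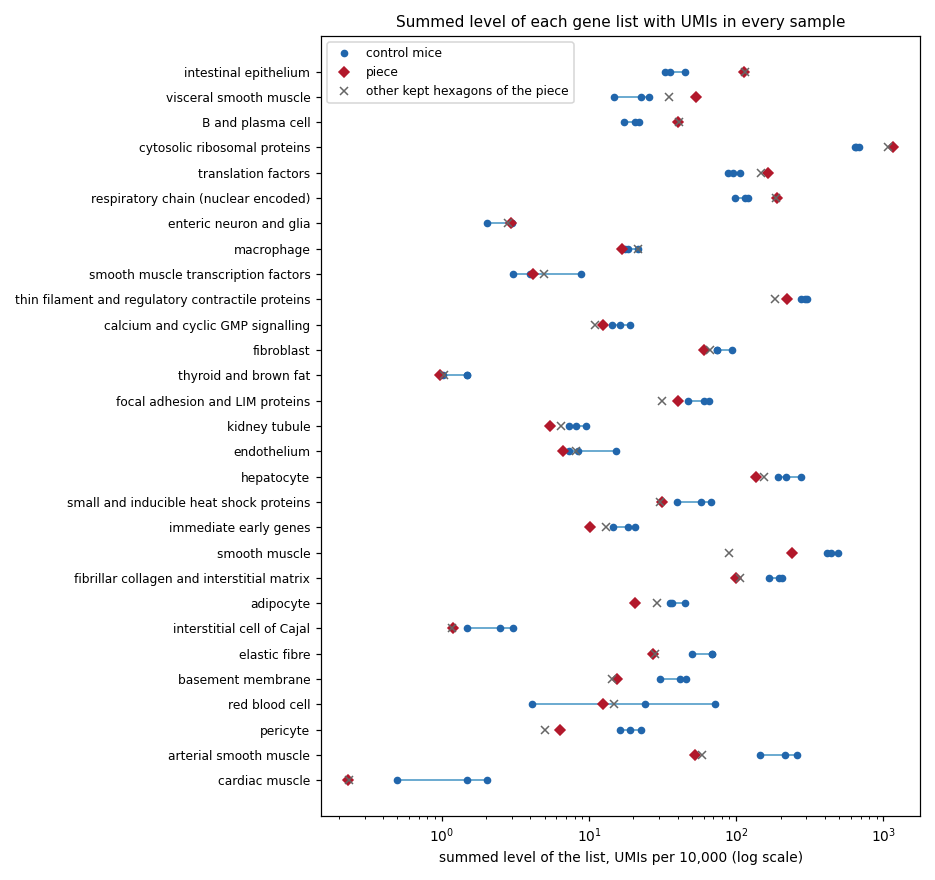
Summed level of each gene list with UMIs in every sample, in UMIs per 10,000 on a log axis, for the members of the piece (diamonds), each control mouse (circles) and the other kept hexagons of the piece (crosses). The visceral list lies at 53.0 in the piece and 14.7 to 25.4 in control mice, and the arterial list at 52.3 and 144 to 258.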

How the data were processed

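Seq-Scope sections of all mice were deposited as 1 matrix of UMI counts for 32285 genes at 9837644 barcodes. Per the labels, the authors processed reads with STARsolo 2.7.5c on mm10. The deposited counts are not normalized, and the exonic column was used, with the column over whole genes as an alternative. The annotation is not given in the sources used here. After removal of 8551 genes starting with mt or Gm, barcodes of lane 2 were grouped into hexagons with 12-μm sides (26.6 position units per μm). Sections were placed from outlines in the supplement, with a median residual of 8.31 μm and an SD of 194 μm over 40 edges. The 3 deposited samples do not separate sections.

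UMIs were summed over members per mouse, with the piece as 1 sum, and tested in edgeR 4.0.16 (R 4.3.3) with TMM, filterByExpr, the quasi-likelihood test and Benjamini-Hochberg adjustment at 0.05. TMM factors ran from 0.931 to 1.07. The median log2 fold change was −0.11. With 2 residual degrees of freedom, the spread of each gene came from the trend over all genes. The SE of a fold change was derived as its size divided by the square root of edgeR's F statistic. Levels are UMIs per 10,000 with Clopper-Pearson intervals, which cover counting error only. Control sums of 6782 to 20055 UMIs limit precision for low genes. Alternatives included DESeq2 1.42.0, other filters and scalings, and leaving out each control mouse.

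Named genes were the 4 of the rule, up to 3 of each of 38 lists by UMI sum, and the 10 of largest change each way outside the control range, with others said to be named after their values were seen. Of the list members, further ones are given as examples. Members, lists and rules were chosen with earlier results of these data known. Gene coordinates and transcripts are from GENCODE M21 (GRCm38).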

Additional observations from a re-analysis of the deposited data

Results flagged for a closer look

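Transcripts were also found in the area of the lane that belongs neither to a section nor to the piece, which no comparison used. Over its 76689 hexagons, with no gene minimum, it held 396442 UMIs, or 5.17 per hexagon. Mptx1 had 3740 UMIs there and Alb 3862, far above the 3 counts that a count of 0 allows. Per hexagon, Mptx1 stood at 0.0488 in that area, 0.477 in control members and 9.22 in members of the piece. Alb stood at 0.0504, 0.864 and 1.34. Per 10,000 UMIs, Mptx1 stood at 94.3 and Alb at 97.4 in that area. The source of these UMIs was not tested.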

How the results depend on the processing

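With UMIs over whole genes 289 genes were higher and 23 lower, and without the low-count filter 126 and 3, with a median log2 fold change of 1.64 over tested genes. A minimum of 75 genes gave 22 and 18, 5 or more contractile UMIs 13 and 3, 2 or more 106 higher, DESeq2 5 and 8, and the AAA mice in the fit 104 higher. Leaving out each control mouse in turn gave 21 to 74 higher and 17 to 43 lower, with the fewest higher without mouse 1 and the fewest lower without mouse 3. Of choices made after the data were seen, a contractile share of 4% or more gave 11 and 8, leaving out members over 300 UMIs 29 and 24, and members from 800 μm on 13 and 11. Library size alone gave 51 and 50 and moved the median log2 fold change from −0.11 to −0.25. In the whole-gene column, where the members also changed, 13 of 102 main calls tested there took the other sign. Genes that kept their sign moved up there too, such as Actg2 (3.04 to 4.26) and Ptgis (−3.38 to −1.91). Of the genes described, called or not, these signs turned. Over whole genes the log2 fold changes were 0.31 for Flna, 1.38 for Tpm2, 0.81 for Myl6, 1.03 for Actb, 0.36 for Fn1, 0.27 for Col1a2, 1.13 for Col3a1, 0.58 for Alb, 0.46 for Mup20 and 0.39 for Cfd. Without the filter they were 0.082 for Flna, 1.05 for Tpm2, 0.55 for Myl6, 0.87 for Actb, 0.24 for Fn1, 0.11 for Col1a2, 0.99 for Col3a1, 0.43 for Alb, 0.33 for Mup20 and 0.36 for Cfd. The UMI sums were the same there, and genes that kept their sign moved up by similar amounts. Among them were Actg2 (3.04 to 4.19), Mgp (−1.70 to −0.53) and Ptgis (−3.38 to −2.21). Turned signs in that fit are thus not read as results of single genes. At a share of 4% or more they were 0.44 for Flna, 1.51 for Tpm2, 0.36 for Myl6, 0.56 for Actb and 0.38 for Col3a1. From 800 μm on they were 0.27 for Flna, 1.13 for Tpm2, 0.42 for Myl6, 0.48 for Actb, 0.23 for Col3a1 and −0.49 for Igha, and before it −0.18 for Mylk. Tpm2, at −0.12 in the main test, was at 0.055 with 5 or more and 0.072 with 2 or more contractile UMIs and 0.67 without members over 300 UMIs, where Actb was at 0.035. Leaving out each control mouse in turn moved Tpm2 between −0.17 and 0.0021, positive without mouse 2. Other causes were not tested. Members of the piece numbered 489 at 5 or more contractile UMIs, 33 without UMIs of other cells' markers and 381 at a share of 4% or more. In control mice they numbered 209 at 75 genes, 105 at 5 and 621 at 2 or more contractile UMIs, 16 and 221. The fit without markers of other cells was not run, since too few genes passed the filter. Leaving out hexagons within 500 μm of the first section removed none. Over 50 genes in all alternatives, 595 results kept side and direction, 180 lost the call, 30 gained it and 37 took the other sign. Actg2 was called under every alternative except DESeq2. No paired analysis was possible because the piece is a single sample with no replicate number.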
